A study of Mus musculus with 4 samples.

Results

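The clustered protocadherins are cell-surface cadherins encoded side by side on mouse chromosome 18 in 3 groups, Pcdha (alpha), Pcdhb (beta) and Pcdhg (gamma). The members were the protein-coding genes of chromosome 18 in the GENCODE annotation of GRCm38 (mm10) with symbols that start with Pcdha, Pcdhb or Pcdhg, which gave 57 of 21670 protein-coding genes, 14 of them Pcdha, 22 Pcdhb and 21 Pcdhg. All lay on the + strand, Pcdha at chr18:36929184-37187661, Pcdhb at chr18:37263938-37524479 and Pcdhg at chr18:37660793-37841873, so that the array, from 1 kb before the first gene start to the last gene end, was 912.69 kb long. GENCODE gave the symbol Pcdha11 to 2 genes, and the one that RefSeq places as Pcdha10 is called Pcdha10 here. The measure was H3K4me3 HiChIP-seq, in which chromatin is cut with MboI, neighbouring ends are ligated and pulled down with an antibody against trimethylated lysine 4 of histone H3, so that each sequenced pair joins 2 positions that were close in the nucleus near this promoter mark.

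There were 4 libraries, 1 per condition, from MLg cells, a mouse lung fibroblast line. The conditions were Control, TGFB1 (transforming growth factor beta 1 at 5 ng/ml for 4 h), miR-9-LOF (loss of function of the microRNA miR-9 by a specific antagomiR, an antisense inhibitor) and both together, TGFB1+miR-9-LOF. Per the methods, cells received 60 nM of control or miR-9-specific antagomiR and were harvested 24 h after transfection, and for Control and TGFB1 the labels give no antagomiR at all. The libraries held 15333455, 10860205, 14087799 and 15550619 valid pairs on chromosomes 1 to 19 and X in the order Control, TGFB1, TGFB1+miR-9-LOF, miR-9-LOF, which is the order used for all sets of 4 values. With 1 library per condition no difference between conditions could be tested. The intervals given are exact 95% intervals that cover counting error only, and pairs carry no molecular identifiers.

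Each member of Pcdha and Pcdhg has its own variable first exon with its own promoter, spliced to constant exons that all members of the group share, and each Pcdhb gene is a single coding exon. In neurons these promoters are chosen individually, which gives each cell its own set of adhesion molecules, and the choice is known to involve the insulator protein CTCF, cohesin, DNA methylation and distal enhancers of the array. The C-type genes (Pcdhac1, Pcdhac2, Pcdhgc3, Pcdhgc4 and Pcdhgc5) stand at the ends of their groups and are not chosen in this way, and Pcdhgc3 is known to be expressed outside the nervous system as well.

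Of the 57 promoters, Pcdhgc3 was the one with H3K4me3 enrichment, and it was so in all 4 libraries. A promoter window was 1 kb to either side of the first-exon start, the same length for every gene, and it was called enriched when its pair ends exceeded both the mean of the chromosome and that of the 100 kb around it at least 4-fold with an adjusted Poisson p of at most 0.01 within the library. Of all 21670 coding promoters, 34.4%, 29.2%, 18.2% and 23% were called, while each library had 1 of 57 members, or 1.75%. The Pcdhgc3 window held 527, 284, 163 and 229 ends, 12.6-fold (11.5 to 13.7), 11.01-fold (9.77 to 12.4), 5.71-fold (4.87 to 6.66) and 7.37-fold (6.45 to 8.39) over its background. Control was the highest and TGFB1+miR-9-LOF the lowest, and the lowest interval did not reach down to the 4-fold limit. Among all coding promoters the Control fold of Pcdhgc3 stood at percentile 91.9, so that its level was high but not extreme. This single promoter held 30.1%, 24.3%, 12.4% and 16.6% of the ends of all 57 windows.

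**Figure D1:**
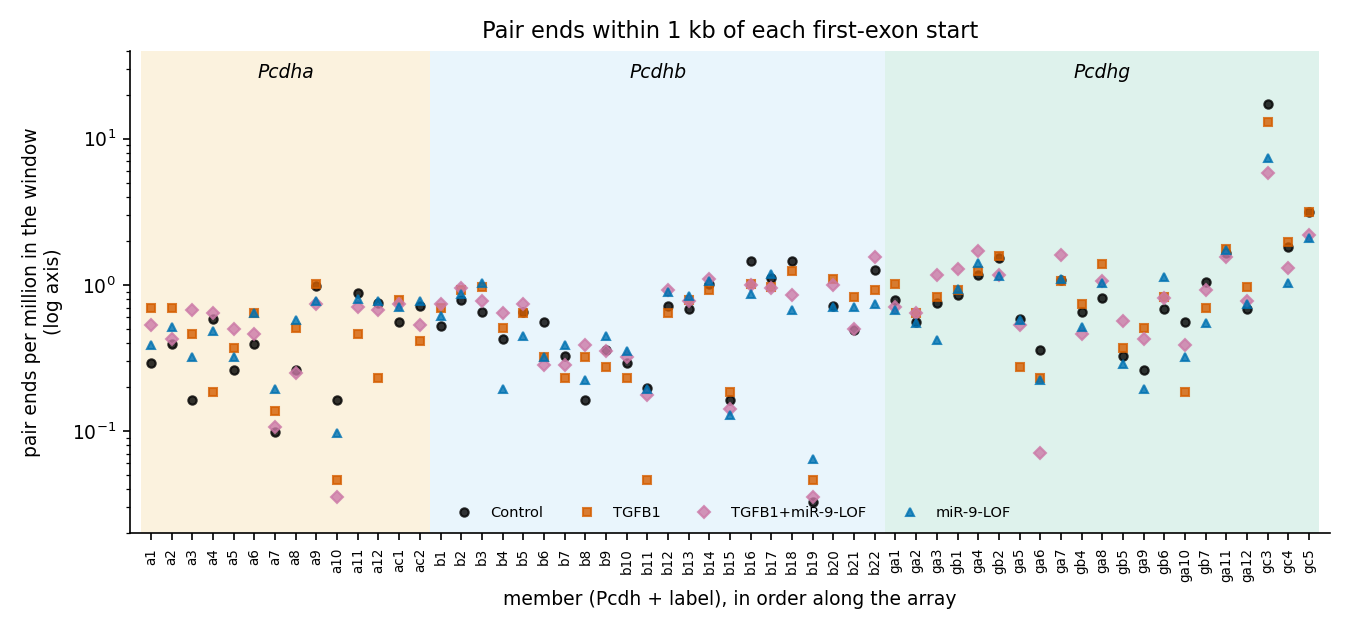
Pair ends in CPM, which are ends per 1000000 ends of the library, in the 2001-bp window of each of the 57 members (log axis), in order along the array and shaded by group, with 1 point per library. Pcdhgc3 stood apart at 5.79 to 17.2 CPM, and Pcdhgc5 followed at 2.09 to 3.18.

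The ends at Pcdhgc3 (first-exon start at position 37806410) lay at and downstream of the start. In bins of 500 bp the highest was the first bin after the start in each library, with 278, 161, 95 and 115 ends. Bins at least 4-fold over background ran without a gap for 4000 bp, from 500 bp before to 3500 bp after the start, in Control, TGFB1 and miR-9-LOF, and for 1000 bp in TGFB1+miR-9-LOF. In that library the next bin held 27 ends and was 3.79-fold, just under the limit, and the following 4 bins were 5.05-fold, 3.65-fold, 5.75-fold and 3.93-fold, so that the shorter run rests on the limit. The antisense gene BC037039 crosses this start on the other strand. The ends carry no strand of transcription, so that the signal cannot be assigned to either gene by these data. The mean profile of the alpha, beta, gamma-a and gamma-b members was low by comparison, with a small rise after the start in each library. In the 500 bp before the start it stood at 0.088, 0.082, 0.089 and 0.096 CPM. In the first 500 bp after the start it was 0.211, 0.216, 0.233 and 0.211 CPM, and in the next 0.246, 0.239, 0.248 and 0.219. Bins farther from the start than 1500 bp were at most 0.184 CPM.

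**Figure D2:**
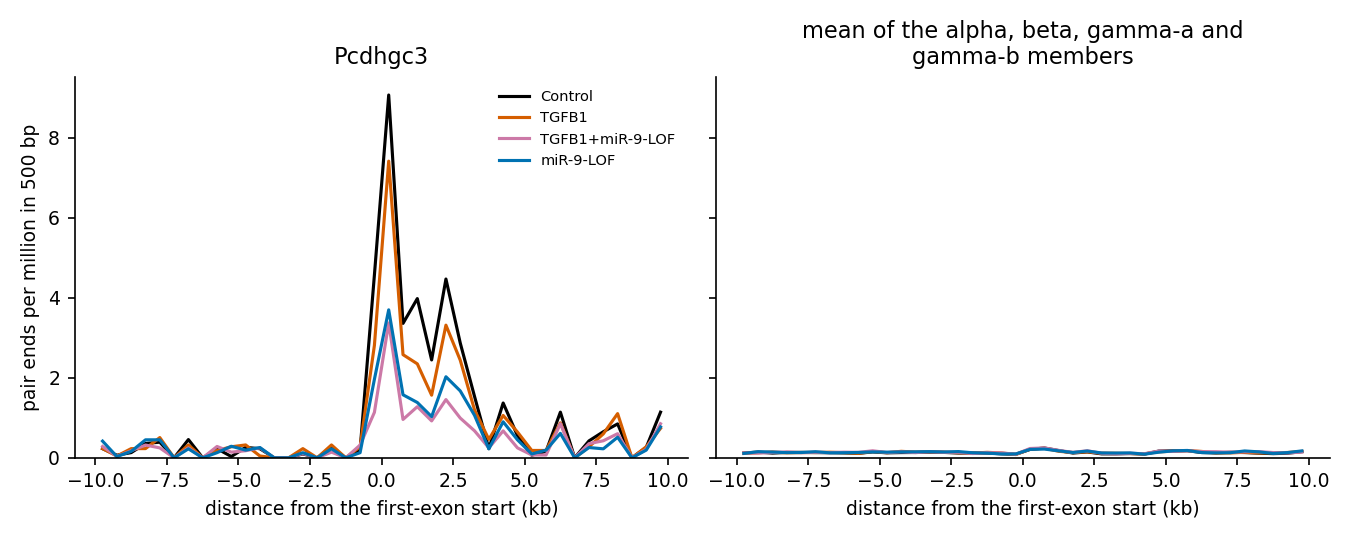
Pair ends in CPM in bins of 500 bp from 10 kb before to 10 kb after the first-exon start, for Pcdhgc3 (left) and as the mean of the members that are not C-type (right), with 1 line per library. The Pcdhgc3 peak fell in the first 500 bp after the start in each library. The mean in the right panel rose to at most 0.248 CPM after the start, which the shared scale makes hard to see.

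The other 4 C-type promoters were not called. Pcdhgc5 held 97, 69, 62 and 65 ends, 1.95-fold (1.58 to 2.38), 2.32-fold (1.80 to 2.93), 2.08-fold (1.59 to 2.66) and 1.94-fold (1.49 to 2.47) over its background, so that all 4 intervals lay above 1 and below 4. Its surrounding 100 kb contains Pcdhgc3, and against the chromosome mean alone Pcdhgc5 was 6.07-fold, 6.08-fold and 4.12-fold in the first 3 libraries and was called there. Pcdhgc4 held 56, 43, 37 and 32 ends, with folds of 1.10, 1.41, 1.21 and 0.930. Its surrounding 100 kb contains Pcdhgc3 too, and against the chromosome mean alone it was 3.502-fold (2.65 to 4.55), 3.79-fold (2.74 to 5.11), 2.46-fold (1.73 to 3.39) and 1.94-fold (1.33 to 2.74), not called in any library. The one other member that near to Pcdhgc3, Pcdhga12, moved from 0.487-fold, 0.786-fold, 0.836-fold and 0.730-fold to 1.31-fold, 1.85-fold, 1.46-fold and 1.40-fold. The alpha C-types were at the level of their surroundings, Pcdhac1 with 17, 17, 21 and 22 ends and Pcdhac2 with 22, 9, 15 and 24. In the Control order of members by ends, Pcdhgc3 exceeded Pcdhgc5, and Pcdhgc5 exceeded Pcdhgc4, beyond counting error, and none of the other 54 neighbouring pairs differed beyond it. Neighbours in a sorted order lie close, so this does not cover members far apart in it, such as Pcdhga11 with 51 ends and Pcdhb19 with 1.

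Pcdha had the fewest ends of the 3 groups. Its 14 windows together held 199, 144, 198 and 229 ends, which was 0.889-fold (0.770 to 1.02), 0.907-fold (0.765 to 1.07), 0.941-fold (0.814 to 1.08) and 0.994-fold (0.869 to 1.13) of background, so that no library showed the group above or below its surroundings beyond counting error. The members with most ends in Control were Pcdha9 with 30, 22, 21 and 24, Pcdha11 with 27, 10, 20 and 25, Pcdha12 with 23, 5, 19 and 24, and Pcdhac2. Pcdha7 had the fewest with 3, 3, 3 and 6, followed by Pcdha3 with 5, 10, 19 and 10 and Pcdha10 with 5, 1, 1 and 3. Pcdha7 and Pcdha10 were low in all 4 libraries, while Pcdha3 held 10 to 19 outside Control.

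Pcdhb lay slightly above background in each library. Its 22 windows held 431, 300, 409 and 403 ends, or 1.23-fold (1.11 to 1.35), 1.20-fold (1.07 to 1.35), 1.24-fold (1.12 to 1.36) and 1.11-fold (1.01 to 1.23), with all 4 intervals above 1. These folds were nevertheless under the median of all coding promoters, which was 1.47, 1.47, 1.42 and 1.43. The highest in Control were Pcdhb16 with 45, 22, 28 and 27 ends, Pcdhb18 with 45, 27, 24 and 21, Pcdhb22 with 39, 20, 44 and 23 and Pcdhb17 with 34, 21, 27 and 37. At the other end, Pcdhb19 held 1, 1, 1 and 2 ends, Pcdhb8 held 5, 7, 11 and 7, and Pcdhb15 held 5, 4, 4 and 4. The group thus spread from 1 to 45 ends in Control.

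Pcdhg without Pcdhgc3 also lay near its background. Those 20 windows held 593, 442, 546 and 518 ends, or 1.11-fold (1.02 to 1.20), 1.22-fold (1.11 to 1.33), 1.18-fold (1.08 to 1.28) and 1.04-fold (0.954 to 1.14). After the gamma C-types the highest member in Control was Pcdhga11 with 51, 38, 44 and 54 ends, and the lowest there were Pcdhga9 with 8, 11, 12 and 6 and Pcdhgb5 with 10, 8, 16 and 9. In TGFB1+miR-9-LOF, Pcdhga4 with 48 and Pcdhga7 with 45 exceeded Pcdhga11, and Pcdhga6, with 11, 5, 2 and 7, was lower than Pcdhga9 and Pcdhgb5 over the 4 libraries. All 56 members other than Pcdhgc3 together were at 1.10-fold (1.04 to 1.16), 1.15-fold (1.07 to 1.23), 1.15-fold (1.08 to 1.22) and 1.06-fold (0.995 to 1.12).

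The rank of the uncalled members recurred between the libraries, and it went with the number of MboI sites in the window. Over the 56 members other than Pcdhgc3, the ends in Control correlated with those in TGFB1 at r = 0.90 (rho = 0.80), with TGFB1+miR-9-LOF at r = 0.85 (rho = 0.88) and with miR-9-LOF at r = 0.84 (rho = 0.85). The ends in Control correlated with the MboI sites at r = 0.57 (rho = 0.59). The median was 6 ends for the 5 members with 0 to 2 sites, 12.5 for the 10 with 3 to 4, 21.0 for both the 17 with 5 to 6 and the 14 with 7 to 8, and 28.5 for the 10 with 9 or more. Pcdhb19 and Pcdhb15, among the lowest, had 1 site each, and Pcdhgc5 had 12. These correlations are descriptions across genes that share libraries, neighbourhood and sequence, and an end can be seen only near a cut site, and the part of the cut sites in these levels was not tested. Pcdhgc3, which these correlations leave out, had 10 sites.

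The windows were lower in GC content than most promoters. The median GC content was 42.9% over the 57 windows and 51.3% over all coding promoters. The ratio of observed to expected CpG had a median of 0.64 in Pcdha, 0.33 in Pcdhb and 0.51 in Pcdhg, against 0.48 over all coding promoters, 0.66 in those enriched in Control and 0.29 in the rest, and the median of all 57 members was 0.48 too. Pcdhgc3 had the most CpG of the members, 119 in its window with a ratio of 0.83. Pcdhac2 came next with 102 and a ratio of 0.69 and held 22 ends in Control, and Pcdhga11, with 79 and a ratio of 0.77, held 51. A G-quadruplex pattern, here 4 runs of at least 3 G or C separated by 1 to 7 bases on either strand of the whole window, occurred at 5 of 57 members (8.77%) at 56.7% of all coding promoters and at 69.7% of those enriched in Control. The 5 members were Pcdhac2, Pcdhga9, Pcdhgb6, Pcdhgc3 and Pcdhgc5. The letters CGCT, the core of the conserved sequence element known from these promoters, occurred on either strand from 250 bp before to 50 bp after the start at 55 of 57 members (96.5%), all but Pcdhb22 and Pcdhga12, at 67.9% of all coding promoters and at 92.2% of those enriched in Control. A match is a match of letters and was not tested for use by any protein.

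The members are similar in sequence, and some reads were placed with low certainty. Pairs whose ends both had mapping quality 30 or more made up 55.6% of the ends at Pcdhgb7, 66.7% at Pcdhb6, 73.8% at Pcdhga10 and 74.2% at Pcdhgb6, and 85.2% at Pcdhgc3. Levels of the first 4 are uncertain for this reason. Over all pairs the kept shares were 90.4%, 90.8%, 90.8% and 86.6%, and Pcdhgc3 stayed the one called member in each library with these pairs alone.

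Genes around and related to the array showed that the marks of an active promoter were visible in these libraries. In Control, 9 of 19 coding promoters in the upstream 500 kb were enriched, Hbegf, a growth factor of the EGF family, with 470 ends, Ankhd1 with 275, Sra1 with 180, Slc35a4 with 339, Apbb3 with 321, Wdr55 with 384, Hars2 and Hars, which encode histidyl-tRNA synthetases, with 662 and 640, and Zmat2 with 232. The windows of Hars2 and Hars overlap, as do those of Slc35a4 and Apbb3. Downstream, 5 of 10 were enriched, Hdac3, a histone deacetylase, and Rell2 with 225 each in overlapping windows, Fchsd1 with 143, Dele1 with 354 and Gnpda1 with 118. Inside the array GENCODE places 5 more coding genes. Of these, Gm42416, Gm37013 and Gm37388 start within Pcdha and end within Pcdhg, and Gm42416 held 18, 4, 18 and 15 ends, the counts of Pcdha4. The others were Slc25a2 and Taf7. Taf7, a subunit of the general transcription factor TFIID between Pcdhb and Pcdhg, was called in Control with 101 ends (5.44-fold). It stood at 42, 55 and 63 ends (3.17-fold, 2.99-fold and 3.32-fold) in the other libraries. In the other 3 libraries 7, 6 and 7 of 19 were called upstream and 4, 1 and 1 of 10 downstream. Of all coding promoters, 34.4% were called in Control and 29.2%, 18.2% and 23% in the others.

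Of 12 protocadherin genes outside the array, 3, 3, 0 and 2 were enriched (25%, 25%, 0% and 16.7%). The share of all coding promoters was 34.4%, 29.2%, 18.2% and 23%. Pcdh7 held 387, 160, 104 and 149 ends, Pcdh18 held 124, 65, 48 and 73, and Pcdh19 held 228, 93, 67 and 127, all highest in Control. Of 15 genes for proteins known to act on the array, 12, 11, 11 and 11 were enriched, among them Smchd1 with 747, 456, 284 and 414 ends, Rad21, a subunit of cohesin, with 631, 341, 260 and 263, Rest, a repressor of neuronal genes, with 823, 409, 324 and 366, and Ctcf with 691, 337, 269 and 300. Among other families in arrays, none of 1134 olfactory receptor promoters was called in any library, and 2, 2, 1 and 2 of 39 Hox promoters were. Of 8 fibroblast markers 3, 1, 1 and 1 were called, with Vim, the gene of the intermediate filament vimentin, called in all 4 and Pdgfrb and Fn1 in Control, and none of 6 neuronal, 5 epithelial, 4 endothelial or 4 leukocyte markers was. Col1a1, with 239, 135, 109 and 129 ends, and Col1a2, with 100, 64, 56 and 47, were not called, and in each library most of the fibroblast markers did not pass.

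The comparisons between libraries set the conditions side by side. With 1 library per condition, a difference between conditions cannot be told apart from a difference between single libraries. The ratios depend on the scale. In CPM, ends per 1000000 ends of the library, the median log2 ratio over the 6174 promoters enriched in the pooled libraries was -0.49 when TGFB1 was set over Control, -0.77 when TGFB1+miR-9-LOF was set over TGFB1, and -1.03 when miR-9-LOF was set over Control, while promoters not enriched had medians of -0.12, -0.16 and -0.18. The comparisons share libraries, Control in the first and the last and TGFB1 in the first 2. In each, ratios are given in CPM and then centred on the median of enriched promoters.

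The ratio of Pcdhgc3 lay near the median of enriched promoters for TGFB1 over Control, and below it for TGFB1+miR-9-LOF over TGFB1. It stood at 17.2, 13.1, 5.79 and 7.36 CPM. TGFB1 over Control was -0.39 on the log2 scale (-0.61 to -0.18) in CPM and 0.09 (-0.12 to 0.30) when centred, and 71.4% of enriched promoters had a lower ratio. TGFB1+miR-9-LOF over TGFB1 was -1.18 (-1.46 to -0.89) in CPM and -0.41 (-0.70 to -0.13) when centred, and 1.49% of enriched promoters had a lower ratio. Of the 2904 enriched promoters at least 10-fold over background in Control, 1.27% had a lower one. The values of miR-9-LOF over Control were -1.22 (-1.45 to -0.996) in CPM and -0.20 (-0.43 to 0.03) when centred, with 16.7% of enriched promoters lower. On the centred scale no contrast passed 1.5-fold at Pcdhgc3, and counting error is the only error these intervals hold.

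The rest of the array did not follow the enriched promoters down, and neither did promoters not enriched, with medians of -0.12, -0.16 and -0.18. Pcdha stood at 6.49, 6.63, 7.03 and 7.36 CPM, Pcdhb at 14.1, 13.8, 14.5 and 12.96, and Pcdhg without Pcdhgc3 at 19.3, 20.3, 19.4 and 16.7. In CPM, 8 of the 9 ratios of these 3 groups had intervals that covered no change, and the exception was Pcdhg without Pcdhgc3 in miR-9-LOF over Control at -0.22 (-0.39 to -0.04). With Pcdhgc3 included, Pcdhg stood at 36.5, 33.4, 25.2 and 24.0, with log2 ratios of -0.13 (-0.26 to 0.01), -0.41 (-0.56 to -0.26) and -0.60 (-0.74 to -0.47). The last 2 intervals thus left out no change, and without that single promoter those 2 ratios were -0.07 (-0.25 to 0.11) and the -0.22 given above, so that the first no longer lay beyond counting error while the second was smaller and still did. Centred on enriched promoters, the same groups came out higher by construction of the scale. Pcdha was higher by 0.52, 0.85 and 1.21, Pcdhb by 0.46, 0.84 and 0.91 and Pcdhg without Pcdhgc3 by 0.56, 0.70 and 0.81. Pcdhg with it was higher by 0.36, 0.36 and 0.42. Centred on promoters not enriched, the values were 0.15, 0.24 and 0.36 for Pcdha and 0.10, 0.23 and 0.06 for Pcdhb. For Pcdhg without Pcdhgc3 they were 0.20, 0.09 and -0.04. On that scale intervals left out no change for Pcdha in the last comparison (0.08 to 0.64) and Pcdhb in the second (0.01 to 0.45). Pcdhg without Pcdhgc3 did so in the first (0.02 to 0.38), and all other intervals covered no change.

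**Figure D3:**
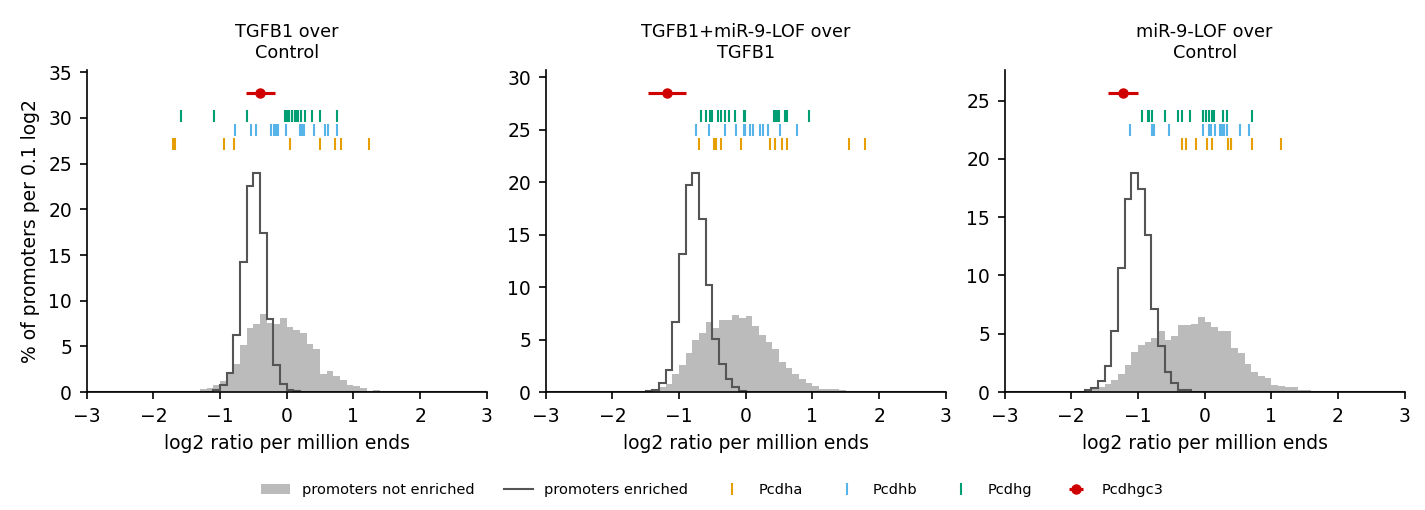
Log2 ratio of CPM between libraries for each comparison, with the percentage of promoters per 0.1 log2 unit for promoters not enriched (grey) and enriched (outline), and above them 1 tick per tested member and the Pcdhgc3 ratio with its 95% counting interval. Pcdhgc3 stood at -0.39, -1.18 and -1.22, in the second comparison at the low end of the enriched promoters, of which 1.49% were lower, and the other members spread more widely than the enriched promoters.

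Member by member the counts were small. Members with at least 20 ends in the compared libraries together numbered 42, 44 and 45. On the centred scale 7, 14 and 25 of them were past 1.5-fold higher with an interval that left out no change, against 11.9%, 23.5% and 36.8% of all tested promoters, and 0 were lower, against 0.396%, 0.178% and 0.309%. All tested promoters included the 6174 enriched ones, which this scale holds around no change, beside 12282, 12368 and 12948 not enriched. The share over promoters not enriched alone was not computed, so these counts mark no trait of the array. In CPM the same rule gave 0, 2 and 0 higher (1.58%, 1.16% and 2.22% of all tested promoters) and 2, 1 and 7 lower (15.5%, 38.2% and 48.6%). Relative to promoters not enriched it gave 2, 3 and 2 higher (2.90%, 2.71% and 4.70%) and 1, 1 and 2 lower (6.32%, 24.5% and 40.9%).

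The members called higher on the centred scale for TGFB1 over Control, with ends in Control and in TGFB1, were Pcdha1 (9 and 15), Pcdha2 (12 and 15), Pcdhb21 (15 and 18), Pcdhga8 (25 and 30), Pcdhb20 (22 and 24), Pcdhb3 (20 and 21) and Pcdhga12 (21 and 21). None of these was called in CPM. The 2 lower in CPM were Pcdha4, with 18 ends in Control and 4 in TGFB1, and Pcdha12, with 23 and 5. They stood at 18 and 19 ends in TGFB1+miR-9-LOF and at 15 and 24 in miR-9-LOF, so that TGFB1 was the single low library.

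For TGFB1+miR-9-LOF over TGFB1, Pcdha4 and Pcdha12 were also the 2 members called higher in CPM, at 1.80 (0.19 to 3.82) and 1.55 (0.08 to 3.33), with ends of 4 and 18 and of 5 and 19, and Pcdhgc3 was the one called lower. The largest centred changes after these were Pcdhga5 (6 ends in TGFB1 against 15), Pcdhb22 (20 and 44), Pcdha11 (10 and 20), Pcdhgb5 (8 and 16), Pcdhga7 (23 and 45), Pcdha3 (10 and 19), Pcdhb12 (14 and 26) and Pcdhga3 (18 and 33). Setting miR-9-LOF over Control, the largest centred changes were Pcdha8 (8 ends in Control and 18 in miR-9-LOF), Pcdha6 (12 and 20), Pcdhgb6 (21 and 35), Pcdhb3 (20 and 32), Pcdhb21 (15 and 22), Pcdha1 (9 and 12), Pcdha2 (12 and 16), Pcdhac1 (17 and 22), Pcdhga8 (25 and 32) and Pcdhb12 (22 and 28). In CPM none of these passed, and the 7 lower were Pcdhb16, Pcdhb18, Pcdhb22, Pcdhgb7, Pcdhgc3, Pcdhgc4 and Pcdhgc5, which include all 3 gamma C-types and 3 of the 4 Pcdhb members that were highest in Control. Those Pcdhb members were named for their Control values, which this comparison uses too.

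Contacts were counted as pairs 20 kb to 2 Mb apart and set over the pairs expected from distance and coverage. Coverage was the ends that each 10-kb bin had in pairs between chromosomes, with 1-kb bins for promoter windows. The contact intervals hold the counting error of the pairs found and not that of this coverage. Within the array 947, 631, 826 and 958 pairs were found. Observed over expected was 1.32 (1.24 to 1.41), 1.33 (1.23 to 1.44), 1.24 (1.16 to 1.33) and 1.27 (1.19 to 1.35). How this value stood among 2644 to 2659 genome tiles of the same length depended on the coverage used. With coverage from pairs between chromosomes 59.1%, 56.3%, 57.3% and 57.2% of tiles were at least as high, and with coverage from the same pairs, where the array's values were 2.55, 2.78, 2.70 and 2.48, 17.1%, 9.53%, 6.26% and 5.38% were. With balanced coverage, which makes the expected pairs of each bin equal to those found, the array's values were 1.38, 1.42, 1.396 and 1.36, and 4, 2, 4 and 4 tiles (0.151%, 0.0756%, 0.151% and 0.150%) were at least as high. Contacts with the flanking 500 kb were few. With the upstream flank the ratio was 0.432 (0.373 to 0.498), 0.358 (0.293 to 0.432), 0.399 (0.335 to 0.470) and 0.478 (0.416 to 0.548), and with the downstream flank 0.744 (0.675 to 0.819), 0.724 (0.638 to 0.817), 0.641 (0.569 to 0.718) and 0.729 (0.657 to 0.807).

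Relative to expectation, contacts inside the array were thus more frequent than contacts with the 500-kb flanks taken whole. The ratio of the inside value to that of both flanks was 2.18, 2.39, 2.32 and 2.07, against tile medians of 0.979, 0.983, 0.984 and 0.994. Of the tiles, 15, 9, 12 and 28 (0.566%, 0.340%, 0.453% and 1.053%) were at least as high. The tiles start at fixed distances while the array was cut at gene borders, so this is a description and not a test. With the 4 libraries summed the ratio was 2.21 (2.09 to 2.34), and it lay between 1.99 and 2.50 under the other settings tried. The levels themselves moved more. With the distance factor of chromosome 18 alone the value within the array was 0.956, and with coverage from the same pairs the upstream value was 1.13 and the downstream one 1.00.

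With coverage from pairs between chromosomes, the contacts below expectation lay away from the array and not next to it. The split into the nearest 100 kb and the rest of each flank was chosen after the map of contacts was seen. It was not tried with coverage from the same pairs, under which the whole flanks did not lie below expectation in the summed libraries. With the nearest 100 kb upstream the array had 0.972 (0.859 to 1.09) of the expected pairs in the summed libraries, and with the rest 0.295 (0.267 to 0.325). Downstream the values were 1.31 (1.22 to 1.40) and 0.382 (0.349 to 0.418), so that contacts just beyond that border were above expectation. Each library by itself was lower with the far than with the near stretch, from 0.256 to 0.328 against 0.804 to 1.18 upstream and from 0.361 to 0.407 against 1.02 to 1.47 downstream. The active genes of the upstream flank, Zmat2 to Hbegf, start 135 to 413 kb from the array, in the far stretch, and Hdac3, the nearest enriched gene downstream, starts 113 kb beyond it.

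**Figure D4:**
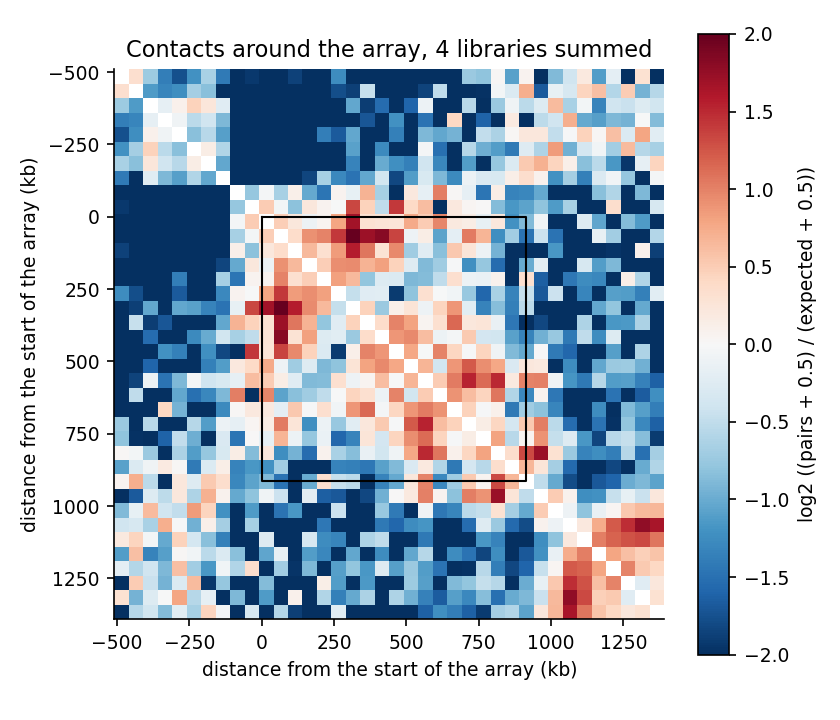
Contacts around the array in bins of 50 kb with the 4 libraries summed, as log2 of pairs over expected pairs with 0.5 added to each, and distances in kb from the start of the array on both axes. The square marks the array, which holds red bins and also blue ones, such as those joining Pcdha to the end of Pcdhg, and bins joining the array to stretches more than about 100 kb beyond its borders were mostly blue.

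Among the groups, Pcdha and Pcdhg, the outer ones, had a lower ratio than either had with Pcdhb. In the summed libraries the ratio was 1.46 (1.33 to 1.60) within Pcdha, 1.60 (1.44 to 1.77) within Pcdhb and 1.26 (1.18 to 1.35) within Pcdhg. Between Pcdha and Pcdhb it was 1.33 (1.17 to 1.499) from 261 pairs and between Pcdhb and Pcdhg 1.34 (1.20 to 1.498) from 320 pairs. Pcdha and Pcdhg met in 69 pairs, or 0.625 (0.487 to 0.791). The level of 1 is no firm reference here, since tiles of the genome had medians above it. With the distance factor of chromosome 18 alone the values were 0.981 (0.866 to 1.11) between Pcdha and Pcdhb, 0.987 (0.882 to 1.10) between Pcdhb and Pcdhg and 0.446 (0.347 to 0.565) between Pcdha and Pcdhg, and with coverage from the same pairs they were 3.61, 2.42 and 1.43, so that Pcdha with Pcdhg stayed the lowest while the order of the other two and the side of 1 changed. With the flanks the ratios followed the order along the chromosome, 0.328, 0.487 and 0.652 upstream and 0.326, 0.565 and 0.836 downstream for Pcdha, Pcdhb and Pcdhg. Pcdha was thus low with both flanks, although it borders the upstream one.

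**Figure D5:**
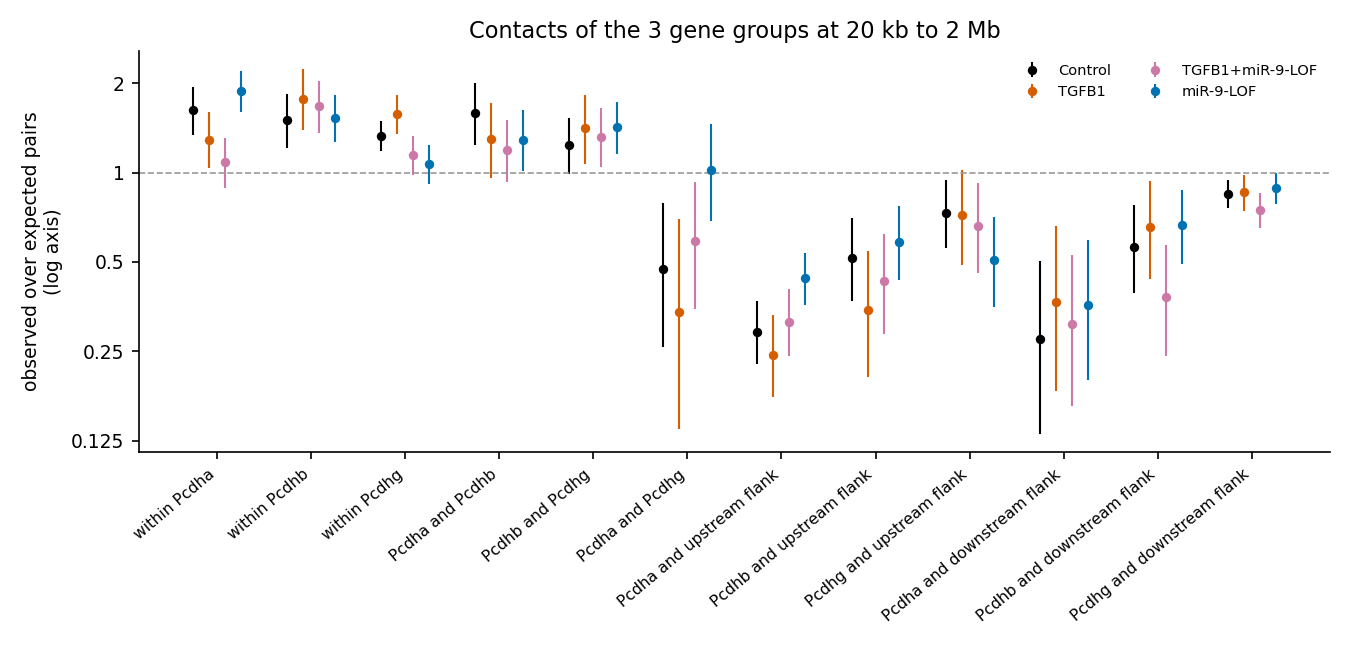
Observed over expected pairs (log axis) at 20 kb to 2 Mb within and between the 3 groups and with each 500-kb flank, with 1 point per library and its exact 95% Poisson interval, and a dashed line at 1. Values within groups and between neighbouring groups lay between 1.07 and 1.89, and values of Pcdha and Pcdhb with either flank between 0.244 and 0.664.

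The strongest block on the map joined the middle of Pcdha to the stretch before Pcdhb. Among the 50-kb bin pairs in the array with at least 20 pairs, a choice made after the values were seen, the highest was chr18:36970001-37020000, which holds Pcdha7 to Pcdha11, with chr18:37220001-37270000, which holds the space behind the last Pcdha exon and the start of Pcdhb1. It had 7, 7, 5 and 10 pairs, 29 in all against 6.86 expected, or 4.23-fold (2.83 to 6.07). The next 2 were the same Pcdha bin with Pcdhb2 to Pcdhb4 at 24 pairs (3.44-fold, 2.20 to 5.11) and Pcdha1 to Pcdha6 with the Pcdhb1 bin at 23 pairs (3.37-fold, 2.13 to 5.05). All 3 thus joined Pcdha variable exons to the ground around the first Pcdhb genes. Under the limit of 20 pairs, the same Pcdha bin with that at 391 kb from the array start had 18 pairs (3.78-fold). In TGFB1+miR-9-LOF alone the interval covered 1 for the highest block (0.945 to 6.79) and the second (0.508 to 4.78). For the third it did so in TGFB1 alone (0.338 to 4.79). The expected pairs used coverage from pairs between chromosomes only.

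Pairs between the promoter windows themselves were few. The coverage behind their expected pairs was sparse too, with 45, 29, 55 and 37 ends between chromosomes over all Pcdha windows. In the 4 libraries together 9 pairs joined Pcdha and Pcdhb windows (2.01, 0.918 to 3.81), 5 joined Pcdha and Pcdhg windows (1.43, 0.465 to 3.34) and 26 joined Pcdhb and Pcdhg windows (1.19, 0.778 to 1.75), and all 3 intervals covered 1. This depended on the setting. With coverage from the same pairs the values were 4.14 (1.89 to 7.87), 2.87 (0.931 to 6.69) and 2.19 (1.43 to 3.21), so that the first and the last lay above 1. They did so too with windows of 5 kb to either side, at 1.84 (1.49 to 2.26) from 93 pairs and 1.60 (1.40 to 1.82) from 228, where Pcdha with Pcdhg stood at 0.984 (0.685 to 1.37) from 35. With balanced coverage all 3 covered 1, at 1.68 (0.768 to 3.19), 1.48 (0.480 to 3.45) and 1.14 (0.746 to 1.67). Within the groups there were 10 pairs in Pcdha (2.23, 1.07 to 4.11), 27 in Pcdhb (1.65, 1.09 to 2.41) and 55 in Pcdhg (1.10, 0.832 to 1.44). For Pcdhgc3 the intervals with the other promoters covered 1, with 0 pairs with Pcdha (up to 3.14-fold), 3 with Pcdhb (0.434, 0.0895 to 1.27) and 24 with the other Pcdhg windows (0.970, 0.621 to 1.44). In bins within 10 kb of Pcdhgc3 the summed ratio was 0.262 (0.120 to 0.497) with Pcdha, 0.783 (0.590 to 1.02) with Pcdhb and 1.01 (0.888 to 1.14) with the variable exons of Pcdhg. It was 0.820 (0.745 to 0.900) with the downstream flank and 0.781 (0.600 to 1.00) with the upstream one. The stretch between Pcdha and Pcdhb had 0.303 (0.0825 to 0.775) and that between Pcdhb and Pcdhg 0.606 (0.459 to 0.785). Both of these intervals covered 1 with balanced coverage, at 0.410 (0.112 to 1.05) and 0.819 (0.620 to 1.06). With balanced coverage the upstream value turned to 1.41 (1.08 to 1.81) and that of the variable exons was 1.15 (1.01 to 1.30), the downstream value was 0.997 (0.906 to 1.09) and no longer lay below 1, and the Pcdha value stayed low at 0.385 (0.176 to 0.730).

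Between libraries, of 54 comparisons of contacts within and between the groups and flanks, 6 had intervals that left out no change. These intervals take the expected pairs as exact, although the coverage behind them was itself a count. For the Pcdhg region it was 609, 310, 519 and 546 ends. With that error included the intervals would be wider, and how many would still leave out no change was not computed. Within Pcdhg, TGFB1+miR-9-LOF over TGFB1 was -0.46 (-0.77 to -0.16) and miR-9-LOF over Control -0.31 (-0.59 to -0.04) on the log2 scale. Between Pcdha and Pcdhg, miR-9-LOF over Control was 1.11 (0.15 to 2.14) from 30 and 14 pairs, and between Pcdha and the upstream flank 0.60 (0.14 to 1.07) from 98 and 67. The last 2 lay within the flanks, 0.17 (0.03 to 0.31) within the downstream one for TGFB1 over Control and -0.21 (-0.35 to -0.07) within the upstream one for miR-9-LOF over Control. With balanced coverage the pair Pcdha and Pcdhg kept its interval above 0 at 0.995 (0.04 to 2.02) and the other 5 did not. No comparison was made over replicates, and how much libraries of a same condition would differ was not tested.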

How the data were processed

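H3K4me3 HiChIP-seq of MLg cells, 4 libraries, was analysed from lists of valid pairs. The authors aligned the reads with HiC-Pro (version not given in the sources used here) to mm10 with MboI fragments and removed duplicates, and deposited 2 positions and, as a score, 2 mapping qualities per pair, with no normalization. Pair ends on chromosomes 1 to 19 and X were counted within 1 kb of the first-exon starts of GENCODE protein-coding genes. Where a gene had several coding transcripts, the outermost start was used, and starts farther inside were not counted. Enrichment needed 4-fold over both the mean of the chromosome and that of the local 100 kb and an adjusted Poisson p of at most 0.01. Ratios between libraries used genes with at least 20 ends in both together and were called past 1.5-fold with an exact 95% interval that left out no change. The libraries held 15333455, 10860205, 14087799 and 15550619 pairs, so that the median member had 15 to 20 ends per library.

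Expected contacts came from the genome-wide distance decay and the coverage of each bin in pairs between chromosomes. Coverage from the same pairs was biased on simulated data. It was replaced after the data were seen, as the alternatives with balanced coverage and the same pairs record. The simulation drew coverage between chromosomes from the weights that made the pairs, so it could not judge that coverage on real data. Genes were named by rank: the C-type genes, in each group the 4 members with most and the 2 with fewest ends in Control, every called member or the 10 with the largest change per comparison, and flanking genes enriched in Control. The split of the flanks, the highest bins of the map and members named for calls on other scales were chosen after the data were seen. No sequence of the array is printed. Members and gene lists were chosen with earlier results of these data known. Python 3.11.15, numpy 2.4.6, scipy 1.17.1 and pandas 2.3.3 were used.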

Additional observations from a re-analysis of the deposited data

How the results depend on the processing

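No paired analysis was possible because each condition had 1 library, and for the same reason no library could be left out of a condition. The number of enriched members rose at a 2-fold limit to 6, 6, 7 and 4 in the order Control, TGFB1, TGFB1+miR-9-LOF, miR-9-LOF (44.2%, 42.6%, 37.8% and 39.9% of all coding promoters), against the chromosome mean only to 2, 2 and 2 in the first 3 (41.7%, 38.1% and 29.8%), which added Pcdhgc5, and with windows of 0.5 kb to either side to 2 in Control (34.2%), which added Pcdhb18. The log2 ratios of the groups, in the order TGFB1 over Control, both over TGFB1, and miR-9-LOF over Control, depended on the scale. In CPM, not centred, they were 0.031, 0.084 and 0.18 for Pcdha, -0.025, 0.072 and -0.12 for Pcdhb and -0.13, -0.41 and -0.60 for Pcdhg. Centred on promoters not enriched they were 0.15, 0.24 and 0.36 for Pcdha, 0.10, 0.23 and 0.062 for Pcdhb and -0.0040, -0.25 and -0.43 for Pcdhg. Without Pcdhgc3 the centred values of Pcdhg were 0.56, 0.70 and 0.81. Members called higher numbered 0, 2 and 0 in CPM, 11, 29 and 39 with windows of 2 kb to either side (15.5%, 30.8% and 44.5% of all tested promoters), and 20 and 28 in the first 2 comparisons at 1.5-fold alone (22.1% and 34.7%), and members called lower numbered 2, 1 and 7 in CPM and 4 in the first comparison at 1.5-fold alone (1.13%).

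Summed contacts within the array and with the upstream and downstream flanks were 0.956, 0.308 and 0.522 with the distance factor of chromosome 18 only. With balanced coverage, added after the data were seen, the first 2 were 1.39 and 0.650 and the inside value over that of both flanks was 1.99. With coverage of the same pairs, also added then, the 3 were 2.61, 1.13 and 1.00 and the last ratio 2.50. By library, the value within the array was 0.970, 0.991, 0.929 and 0.944 with the chromosome 18 factor. The same-pairs coverage gave 1.11, 1.04, 1.12 and 1.22 upstream and 1.02, 0.958, 0.965 and 1.046 downstream. Between windows it gave 4.14 for Pcdha with Pcdhb and 2.19 for Pcdhb with Pcdhg. The cause was not tested. Pairs between windows numbered 5 to 26 between groups, which limits the precision there.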
